A study of Macaca fascicularis and Macaca mulatta with 24 samples.

Results

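The heat shock proteins and co-chaperones described here are the genes HSPA1A, HSPA1B, HSPA1L, HSPA8, HSPB1, HSPH1, HSPD1, HSPE1, DNAJB1 and BAG3, read in cortex of cynomolgus macaques after a stroke. Array probes were taken as members where their gene name or bracketed symbol matched one of these 10 symbols exactly. The match found 9 probes for 8 of the 10 genes, out of 20217 gene probes on the array, and HSPA1B and HSPE1 were not matched by symbol. HSPA8 had 2 probes, called A (coding sequence) and B (annotated to the 3′ untranslated region), and each other gene had 1.

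The right middle cerebral artery of each animal was blocked, and TatNR2B9c (2.6 mg/kg) or placebo was injected into a vein 5 min later. TatNR2B9c is a peptide that enters cells and uncouples NMDA receptors from the scaffold PSD-95. Cortex of the right hemisphere, labelled ischemic, and of the left hemisphere, labelled control, was taken from the same animals at 6 h or 1 h. The 8 groups were TatNR2B9c right and left and placebo right and left at 6 h, and TatNR2B9c right and left and placebo right and left at 1 h, with 3 animals and so 3 arrays in each. Every animal, placebo and left-side samples included, had the occlusion, so no group came from an animal without a stroke.

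Heat shock proteins are chaperones that hold or refold proteins that lose their shape. HSP70 proteins bind unfolded segments in cycles of ATP use, J-domain proteins such as DNAJB1 start the cycle, and HSPH1 and BAG3 release the nucleotide. HSPA1A is barely made in resting brain and is switched on by the factor HSF1 under protein stress, and its RNA is widely used to mark ischemic but living tissue. HSPA8 is made at all times in neurons, HSPB1 is a small chaperone of stressed glia and vessels, and HSPD1 folds proteins inside mitochondria.

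Each array compared the sample (Cy5 dye) with a universal reference RNA (Cy3 dye), and values below are log2 ratios of sample over reference. A ratio sets a probe's level against the same probe in the reference, so values of different probes are not compared with each other. All 9 member probes passed the filter on dim probes, which kept 17226 of the 20217, and none was saturated on any array. The sample signal was well above background on 24 of 24 arrays for each member probe but that of HSPA1L, which was so on 19. The reference signal was so on 21 arrays for HSPA1A, 22 for BAG3, 23 for HSPB1, 14 for HSPA1L and 24 for each other member probe. On their remaining arrays the ratios of HSPA1A, BAG3, HSPB1 and HSPA1L rest on a reference not well above background. The array probes lie on the rhesus build rheMac2 whereas the animals were cynomolgus, so a probe that differs in sequence can read low.

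The HSPA1A probe lies on chromosome 4, 31479039 to 31479098, plus strand, and the oldest annotation lists it for both HSPA1A and HSPA1B, while the newest names it LOC720054 and describes that gene as HSPA1B. These paralogs cannot be told apart by it, and its values are called HSPA1A below for the symbol that matched. It is shown because most of the variation below rests on it. The capitals mark the last codons of the reading frame, which encode the acidic EEVD tail by which cytosolic HSP70 proteins hold their co-chaperones, and the stop codon. These letters were found, on either strand, in 1 of the 20217 probes, that of HSPA1A. The HSPA8 probe A lies on chromosome 14, 121411288 to 121411347, minus strand, and is shown beside it as the coding probe of the constitutive HSP70.
HSPA1A: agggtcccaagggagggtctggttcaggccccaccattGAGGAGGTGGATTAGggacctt
HSPA8 probe A: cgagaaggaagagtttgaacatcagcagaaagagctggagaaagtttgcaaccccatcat

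The other member probes lie on rheMac2 at chromosome 4, 31458884 to 31458943, minus strand (HSPA1L, a testis-rich HSP70), and chromosome 14, 121410959 to 121411018, minus strand (HSPA8 probe B). HSPB1 is read at chromosome 3, 50070418 to 50070477, minus strand, and HSPH1 at chromosome 17, 10560660 to 10560719, minus strand. HSPD1 is read at chromosome 12, 61103038 to 61103097, minus strand, DNAJB1 at chromosome 19, 14227499 to 14227558, minus strand, and BAG3 at chromosome 9, 119301117 to 119301176, plus strand. A further probe, on chromosome 4 from 31479080 to 31479139, overlaps the HSPA1A probe by 19 bases, and the newest annotation assigns both to the same transcript. It carries no member symbol, so it is not counted among the members, and its values are given as those of the HSPA1B-named probe.

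The arrays were not equally good. The reference signal was well above background for 15.7% to 51.7% of probes on the 6 placebo 1 h arrays, 84.3% to 92.5% on the 6 placebo 6 h arrays and 51.8% to 99.3% on the 12 TatNR2B9c arrays. These sets were extracted with different software versions and shared no slide or scan day, so treatment cannot be told apart from the scanning campaign, nor can the time of the placebo animals. The neuron markers, 8 of 9 genes measured, averaged above the reference in every array, at 1.90 to 3.56 on the TatNR2B9c arrays and 0.29 to 3.90 on the placebo arrays. No value was measured in separated cells, and fewer cells of a type and less RNA per cell cannot be told apart.

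HSPA1A was high on 3 arrays, all labelled left cortex at 6 h. The hemisphere of every array is that of its label, and whether the labels of these 3 animals match the tissue was not tested, a doubt that touches the sign of each of their right-minus-left values. In TatNR2B9c animals 1, 2 and 3 at 6 h, the right cortex gave −0.08, −0.18 and 0.11, against 3.32, −0.45 and 1.56 in the left cortex. In placebo animals at 6 h, the right cortex gave −0.03, −0.28 and 0.66, against 0.53, 3.08 and −0.34 in the left cortex. Both left groups at 6 h thus held an array far above the others and an array at or below the reference, and right and left overlapped in each treatment. At 1 h all 12 arrays were at 0.47 or below. TatNR2B9c right cortex gave −0.65, −0.04 and 0.47 and TatNR2B9c left cortex −0.07, −0.29 and −0.40. Placebo right cortex at 1 h gave −0.34, −0.57 and −0.12 and placebo left cortex 0.14, −0.57 and −0.32. The 12 right-cortex arrays, from the side of the occlusion, lay between −0.65 and 0.66 in the ratio. In the Cy5 signal alone (log2, quantile-normalised) placebo right cortex gave 11.99, 12.12 and 12.85 at 6 h, against 10.42, 10.15 and 10.24 at 1 h. That difference was 2.05 (SE 0.83, limma's adjusted p = 0.0798), against 0.46 (SE 0.74, adjusted p = 0.642) in the ratio, whose reference was weak on placebo 1 h arrays, and in either reading time and campaign cannot be told apart. In placebo left cortex 6 h minus 1 h was 2.48 in Cy5 alone (adjusted p = 0.0506) and 1.34 in the ratio (adjusted p = 0.133), and in TatNR2B9c right cortex −0.13 and 0.03.

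**Figure D1:**
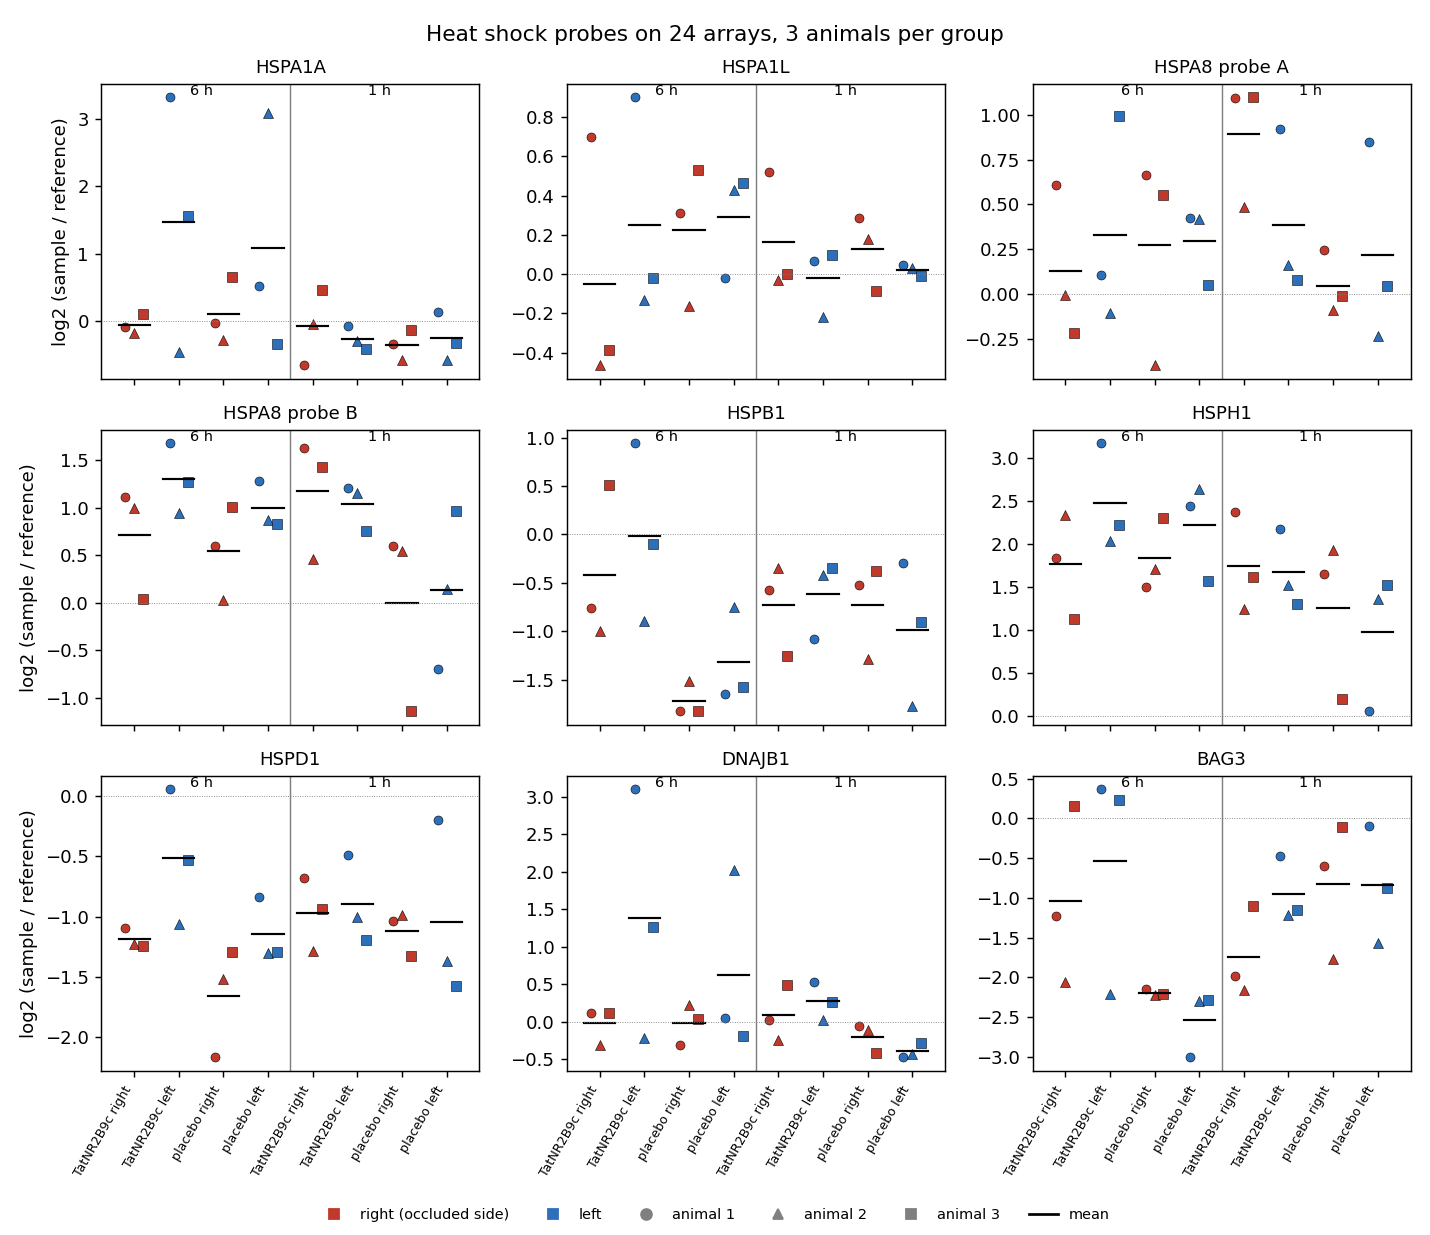
Log2 ratio of sample over reference (y axis) of the 9 member probes in the 8 groups (x axis), with 6 h left and 1 h right of the vertical line; symbols are animals 1 to 3, red is right and blue is left cortex, and bars are means of 3. HSPA1A and DNAJB1 stand high on the same 3 left arrays at 6 h, and BAG3 is low on all 6 placebo arrays at 6 h.

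Set within each animal, HSPA1A was lower in right than in left cortex in 3 animals at 6 h by more than in any animal at 1 h. The right-minus-left difference was −3.40 in TatNR2B9c animal 1, −1.44 in TatNR2B9c animal 3 and −3.36 in placebo animal 2. The other 3 animals at 6 h gave 0.27 (TatNR2B9c animal 2), −0.56 (placebo animal 1) and 1.00 (placebo animal 3), and the 6 animals at 1 h gave −0.58 to 0.87. Right was higher in 5 and lower in 7 of the 12 animals, and the SD of the difference was 1.84 at 6 h and 0.53 at 1 h (n = 6 each). In each placebo animal at 6 h the right and left arrays were on different slides, in animals 1 and 3 also on different scan days. Side cannot be told apart from slide in those animals, whereas both sides of every other animal shared a slide. The same differences stand in the Cy5 signal alone, without the reference: −4.49 in TatNR2B9c animal 1, −3.09 in placebo animal 2 and −1.69 in TatNR2B9c animal 3. The duplicate spots of the probe differed by a median log2 of 0.055 and by at most 0.63.

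The HSPA1B-named probe moved with it in each animal. Its right-minus-left difference was −4.07, 0.42 and −1.63 in TatNR2B9c animals and −0.78, −3.21 and 0.81 in placebo animals at 6 h. Its sign matched that of HSPA1A in 12 of 12 animals. Since both probes are assigned to 1 transcript and share 19 bases, this is a second reading and not independent of the first.

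Averaged over 3 animals, right-minus-left differences of HSPA1A did not pass. The mean was −1.52 (SE 0.74, 95% interval −3.07 to 0.03) in TatNR2B9c animals at 6 h and −0.97 (SE 0.74, −2.52 to 0.58) in placebo animals at 6 h. At 1 h it was 0.18 (−1.37 to 1.73) in TatNR2B9c animals and −0.10 (−1.64 to 1.45) in placebo animals. Over all 12 animals it was −0.60 (SE 0.37, −1.38 to 0.17, limma's adjusted p = 0.884). Without TatNR2B9c left 6 h array 1 the mean of those TatNR2B9c animals became −0.60, and without placebo left 6 h array 2 that of the placebo animals at 6 h became 0.02. The placebo mean thus rests on 1 array, and the TatNR2B9c mean largely on array 1 and partly on left array 3, at 1.56. Leaving out an array without high HSPA1A moved them the other way, to −2.49 without TatNR2B9c left 6 h array 2 and −1.69 without placebo left 6 h array 3. The right-left difference at 6 h minus that at 1 h was −1.29 (SE 0.74, adjusted p = 1). These SEs and intervals use 1 spread estimated over the 8 groups together, not that of the animals compared. At 6 h the SD of HSPA1A was 0.15 in TatNR2B9c right but 1.88 in TatNR2B9c left cortex (n = 3 each). The intervals can thus be too narrow at 6 h, where the left groups spread most, and too wide at 1 h.

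DNAJB1, the J-domain partner of HSPA1A, was high on the same 3 arrays. At 6 h, TatNR2B9c right cortex gave 0.12, −0.31 and 0.11, against 3.101, −0.22 and 1.26 in TatNR2B9c left cortex. Placebo right cortex at 6 h gave −0.31, 0.22 and 0.03, against 0.04, 2.03 and −0.19 in placebo left cortex. At 1 h the 6 TatNR2B9c arrays spanned −0.25 to 0.53 and the 6 placebo arrays −0.48 to −0.07. Right-minus-left differences were −2.98, −0.09 and −1.14 in TatNR2B9c animals and −0.36, −1.80 and 0.22 in placebo animals at 6 h. The mean of −1.40 in TatNR2B9c animals at 6 h (SE 0.58, 95% interval −2.63 to −0.18) had an unadjusted p of 0.0266 and a limma adjusted p of 0.933. It became −0.54 without TatNR2B9c left 6 h array 1 and −2.20 without array 2 of that group. Its SE again uses the spread over the 8 groups together, while the SD in TatNR2B9c left cortex at 6 h was 1.66 (n = 3). The interval that leaves out 0 can thus be too narrow.

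Across animals, the right-minus-left differences of DNAJB1 and HSPA1A were correlated with Pearson's r = 0.91 (12 animals, permutation p = 0.00024, adjusted 0.0012 over 10 relations) and Spearman's rho = 0.73 (p = 0.00879, adjusted 0.0439). Without TatNR2B9c animal 1 and placebo animal 2 at 6 h, the animals farthest from the median of HSPA1A, r was 0.71 over 10 animals (permutation p = 0.0218, adjusted 0.0727), so the relation rests in part on those 2. Within the TatNR2B9c animals r was 0.99 (n = 6, exact permutation p = 0.00139) and within the placebo animals 0.90 (n = 6, exact permutation p = 0.0653). HSPD1 and HSPH1 also followed HSPA1A within the TatNR2B9c animals, at r = 0.95 (n = 6, exact permutation p = 0.00417) and 0.88 (n = 6, exact permutation p = 0.00972), but gave 0.20 and 0.36 within the placebo animals (n = 6, exact permutation p = 0.733 and 0.583). HSPA8 probe A gave 0.27 within the TatNR2B9c animals and 0.81 within the placebo animals (n = 6, exact permutation p = 0.565 and 0.0222). The within-treatment values are not adjusted. All these correlations pooled animals of 6 h and 1 h, and the exact permutations exchanged animals between the times. The SD of the difference was 1.84 at 6 h and 0.53 at 1 h for HSPA1A, and 1.21 and 0.37 for DNAJB1 (n = 6 each). The p-values thus do not separate a relation within a time from a difference between the times, and correlation within a time was not tested. The HSPA1B-named probe, a second reading of the same annotated transcript, gave r = 0.99 over 12 animals. None of the other 8 relations passed after adjustment over 12 animals, where r ran from 0.01 to 0.55. HSPA8 probe A gave r = 0.45 over 12 animals and 0.83 over the 10 (permutation p = 0.00372, adjusted 0.0186). HSPB1 turned from 0.47 over 12 animals to −0.60 over the 10 (permutation p = 0.0687, adjusted 0.137).

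**Figure D2:**
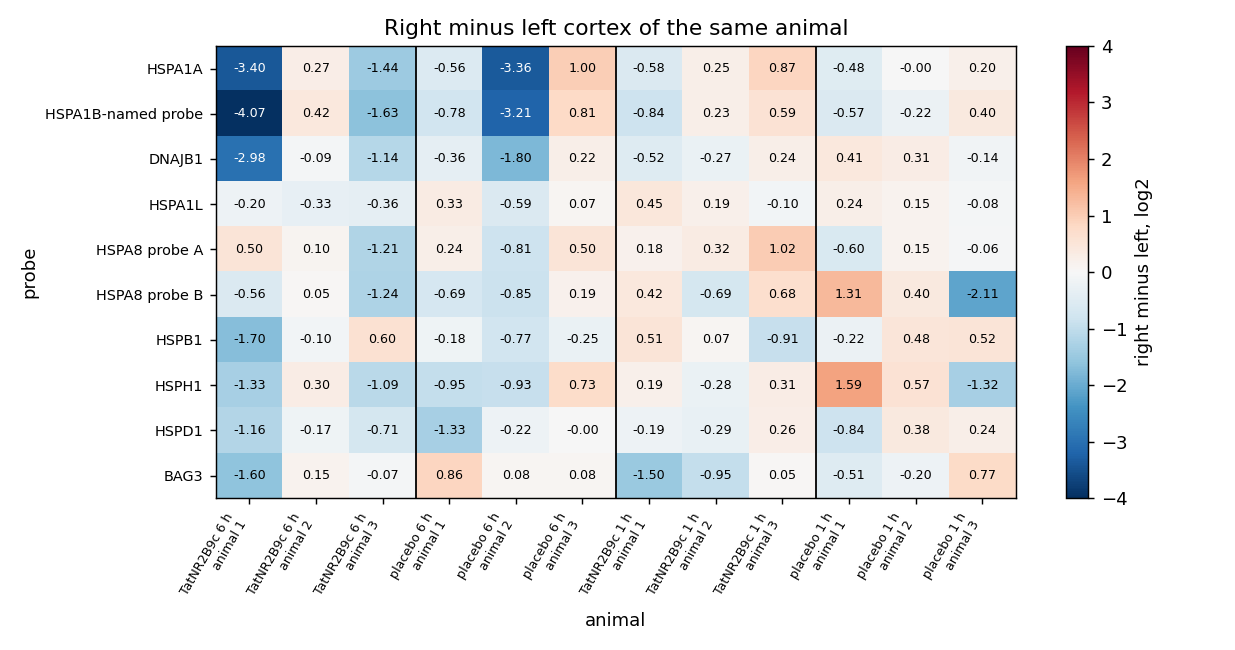
Right-minus-left difference (log2, colour and printed value) of each probe (rows) in each animal (columns), TatNR2B9c before placebo and 6 h before 1 h. HSPA1A, the HSPA1B-named probe and DNAJB1 are lowest in TatNR2B9c animal 1 and placebo animal 2 at 6 h, at −3.40 and −3.36 for HSPA1A.

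TatNR2B9c left 6 h array 1 gave the highest value of 8 of the 9 member probes, all but HSPA8 probe A, and of 9.5% of all kept probes. It was also the array with most probes well above background, 97.7% in the sample and 99.3% in the reference channel. On it the co-chaperones and small chaperones stood at 3.17 (HSPH1), 0.94 (HSPB1), 0.37 (BAG3) and 0.06 (HSPD1), against 1.84, −0.76, −1.23 and −1.099 in the right cortex of the same animal for HSPH1, HSPB1, BAG3 and HSPD1 in that order. In placebo animal 2 at 6 h, the other animal with a large HSPA1A difference, right minus left was −0.93 for HSPH1, −0.77 for HSPB1, −0.22 for HSPD1 and 0.08 for BAG3. HSPA8 probe A, in contrast, was higher in the right cortex of TatNR2B9c animal 1, by 0.50, and lower in that of placebo animal 2, at −0.81 right minus left. HSPA1L, at 0.90 on TatNR2B9c left 6 h array 1, had a log2 signal of 11.94 in Cy5 and 11.41 in Cy3 there. In the right cortex of that animal its signals were 8.25 and 7.41. Its right-minus-left difference in that animal was −4.85 in Cy5 alone (quantile-normalised) but −0.20 in the ratio.

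Some transcripts that cells switch on quickly had the sign of HSPA1A between hemispheres in most animals. Of 7 immediate early genes, ATF3 and FOS, which encode parts of the AP-1 family of transcription factors, had the sign of HSPA1A in 11 of 12 animals and in 6 of 6 at 6 h. They are named after their values were seen. Of all probes with a value in every animal, 0.815% had that sign in at least 11 of 12 animals and 3.32% in 6 of 6 at 6 h. Right-minus-left differences of ATF3 at 6 h were −2.38, 1.30 and −2.12 in TatNR2B9c animals and −1.52, −2.34 and 1.99 in placebo animals, in the order of animals 1 to 3. Those of FOS were −1.57, 2.61 and −2.16 in TatNR2B9c animals and −1.29, −5.42 and 3.03 in placebo animals. NR4A1 had the sign of HSPA1A in 10, JUNB in 8, EGR1 in 7, and ARC and FOSB in 6 of the 12 animals. The mean of the 7 genes had it in 10 of 12 animals and 6 of 6 at 6 h. Of all probes, 4.24% had it in at least 10 of 12. This is a share of single probes, so it is not a like measure for the mean of the 7 genes.

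Marker lists of other cells were read the same way. The neutrophil list (4 of 4 genes) had the sign of HSPA1A in 6 of 6 animals at 6 h, with right-minus-left differences of −0.56, 0.26 and −0.93 in TatNR2B9c animals and −0.61, −0.10 and 0.24 in placebo animals. Its mean level in the 6 h groups ran from −0.72 to 0.65 in TatNR2B9c right, −0.96 to 1.58 in TatNR2B9c left, −1.09 to −1.06 in placebo right and −1.30 to −0.49 in placebo left cortex. The red cell list (2 of 4 genes) had that sign in 5 of 6, with −1.38, 0.51 and −0.87 in TatNR2B9c animals and −1.67, −1.65 and −0.02 in placebo animals. Its level ran from −0.35 to 1.04 in TatNR2B9c right, 0.32 to 1.91 in TatNR2B9c left, −3.80 to −3.07 in placebo right and −3.24 to −1.40 in placebo left cortex at 6 h. Over all 12 animals the red cell list had the sign in 6 and the neutrophil list in 9. On 1 h arrays 0 to 3 of the 4 neutrophil genes were well above background, so some of those signs are read near background. The endothelial and mural list had it in 5 of 6 at 6 h, the oligodendrocyte, microglia and meninges lists in 3, the neuron list in 2 and the astrocyte list in 1. Of all probes, 15.4% had it in at least 5 of 6 animals at 6 h and 3.32% in 6 of 6. These are shares of single probes, whereas each list is read as a mean over genes, so they are not like measures. The lymphocyte list (3 of 5 genes) had the sign of HSPA1A in 6 of 6, but 0 to 3 of its genes were well above background on TatNR2B9c arrays at 6 h, so some of its signs are read near background. The part of these cells in the HSPA1A differences was not tested.

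**Figure D3:**
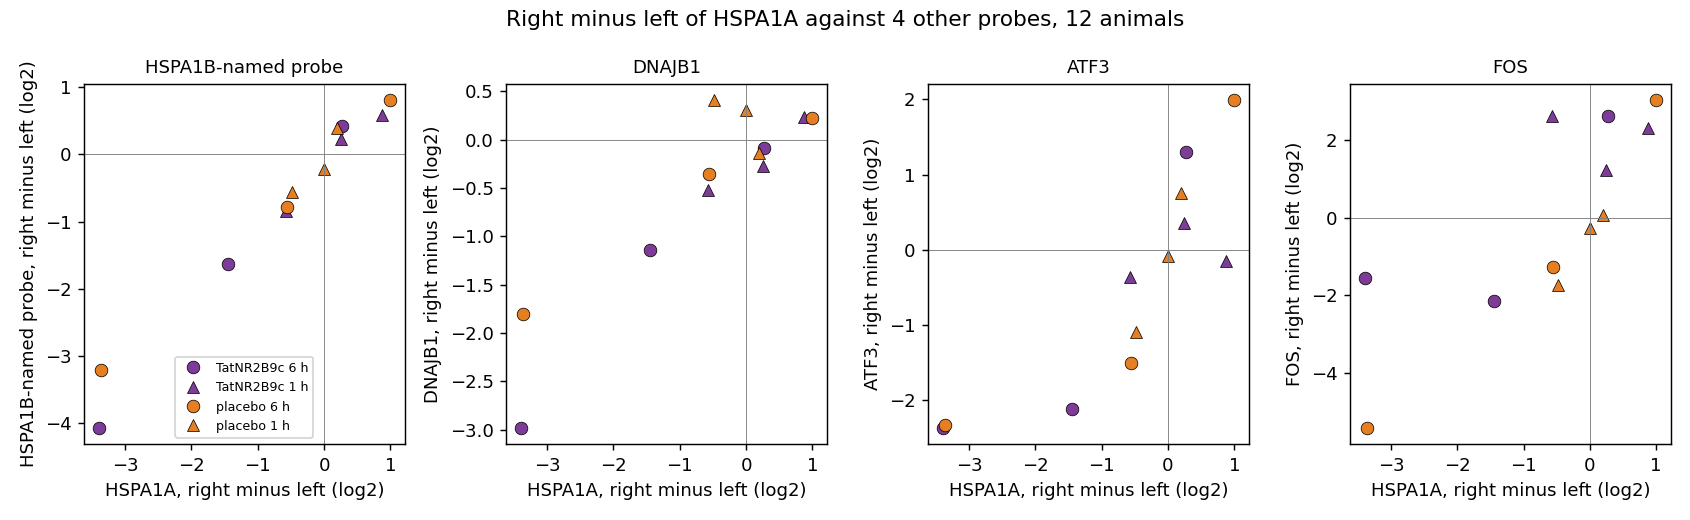
Right-minus-left difference of HSPA1A (x axis, log2) against that of the HSPA1B-named probe, DNAJB1, ATF3 and FOS (y axes, log2) in 12 animals; colours are treatments, circles 6 h and triangles 1 h. The HSPA1B-named probe lies on a line with HSPA1A, and ATF3 and FOS share its sign in 11 of 12 animals.

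No member probe passed in any right-left comparison at an adjusted p of 0.05. In each of the 4 groups of animals and over all 12, 0 of 9 passed, as did 0% of all probes. At an unadjusted p under 0.05 the count was 1 of 9 in TatNR2B9c animals at 6 h (DNAJB1, against 3.34% of all probes) and 0 of 9 in TatNR2B9c animals at 1 h (4.58%), placebo animals at 6 h (3.96%) and 1 h (1.31%) and all 12 (3.84%). The comparison of 6 h with 1 h in the right-left difference gave 0 of 9 (0% of all probes), and that of TatNR2B9c with placebo gave 0 of 9 at 6 h and 0 of 9 at 1 h (0% of all probes in both). At an unadjusted p under 0.05 these 3 comparisons held 0 of 9 members, against 1.65%, 4.41% and 1.72% of all probes. The direction leaned one way at 6 h: all 9 probes were lower in right cortex in TatNR2B9c animals (median −0.58, against 0.06 over all probes) and 8 of 9 in placebo animals (median −0.40, against −0.05). Without TatNR2B9c left 6 h array 1, 7 of 9 were lower in TatNR2B9c animals (median −0.36), and without placebo left 6 h array 2, 4 of 9 were lower in placebo animals (median 0.0061). These probes share the same 3 animals per group, so the count is not 9 independent observations.

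HSPD1, the mitochondrial chaperonin, was the only member whose right and left values did not overlap in TatNR2B9c animals at 6 h, where 2.35% of all probes were so. Right cortex gave −1.099, −1.23 and −1.24, against 0.06, −1.06 and −0.53 in left cortex. Its mean difference was −0.68 there (SE 0.33, adjusted p = 0.933) and −0.34 over the 12 animals (SE 0.16, 95% interval −0.68 to 0.01, adjusted p = 0.884), with right lower in 9 of 12. In placebo animals at 6 h the one member with separate groups was BAG3, higher in right cortex by 0.34 (SE 0.62, adjusted p = 1), against 12.8% of all probes. Slide and, in animals 1 and 3, scan day also differed between the sides of those animals.

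HSPA8 did not pass between hemispheres. Probe A ranged over the 24 arrays from −0.39 to 1.097 and probe B from −1.14 to 1.68. Right minus left over 12 animals was 0.03 (95% interval −0.34 to 0.39) for probe A and −0.26 (−0.75 to 0.23) for probe B. The probes did not move alike: over the 24 arrays their correlation was 0.38, as a description, and probe B went with HSPH1 at 0.84. In placebo animal 1 at 1 h probe A was at −0.60 and probe B at 1.31, right minus left. In the Cy5 signal alone they were at 0.0073 and −0.076 in that animal, so this split is not seen without the reference. The reference of its left array was well above background for 18.0% of probes. HSPA1L ranged from −0.46 to 0.90, was well above background on 1 of 3 TatNR2B9c right arrays at 6 h, and its duplicate spots differed by up to 3.25, so little rests on its values.

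TatNR2B9c and placebo animals were then compared within each hemisphere, with the limit that campaign and treatment cannot be told apart. In left cortex at 6 h, 2 of 9 member probes were higher in TatNR2B9c animals and passed, BAG3 and HSPB1, against 24.6% of all probes passing in either direction, 10.8% higher. In right cortex at 6 h 0 of 9 passed (4.30% of all probes), in right cortex at 1 h 0 of 9 (1.58%) and in left cortex at 1 h 0 of 9 (0.865%). The members' share in left cortex at 6 h was thus near that of the array as a whole.

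BAG3 is a nucleotide exchange factor that steers HSP70 clients to autophagy. At 6 h it gave 0.37, −2.21 and 0.23 in TatNR2B9c left cortex, against −3.005, −2.30 and −2.29 in placebo left cortex. The groups did not overlap, but TatNR2B9c animal 2 lay just above the placebo animals while animals 1 and 3 were far above. The difference was 2.00 (SE 0.62, 95% interval 0.69 to 3.30, limma's adjusted p = 0.0262), a 3.99-fold difference. In right cortex BAG3 gave −1.23, −2.06 and 0.16 in TatNR2B9c animals, against −2.15, −2.22 and −2.21 in placebo animals, a difference of 1.15 (SE 0.62, adjusted p = 0.301). The treatment differences in the hemispheres were not shown to differ from each other (right minus left −0.84, SE 0.88, adjusted p = 0.922).

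HSPB1, the small chaperone HSP27, gave 0.94, −0.89 and −0.09 in TatNR2B9c left cortex at 6 h, against −1.65, −0.75 and −1.57 in placebo left cortex. The groups overlapped, with TatNR2B9c animal 2 below placebo animal 2, and the difference was 1.31 (SE 0.47, adjusted p = 0.0485). In right cortex it gave −0.76, −0.995 and 0.51 in TatNR2B9c animals, against −1.82, −1.51 and −1.82 in placebo animals, with no overlap and a difference of 1.31 (SE 0.47, adjusted p = 0.117). With each array centred on its median in place of loess the left-cortex difference was −0.26, so the direction depends on the normalisation. BAG3 kept its direction there at 1.09 but did not pass (adjusted p = 0.348). In the Cy5 signal alone HSPB1 was higher in TatNR2B9c animals at 6 h by 2.31 in left cortex (SE 0.48, limma's adjusted p = 0.00454). In right cortex it was higher by 2.42 (SE 0.48, adjusted p = 0.00466). BAG3 did not pass in that signal, at 1.29 in left (SE 0.63, adjusted p = 0.152) and 0.18 in right cortex (SE 0.63, adjusted p = 0.935). Campaign and treatment cannot be told apart in these values either.

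The 2 calls rested on few arrays. Neither passed without TatNR2B9c left array 1 or 3, or without placebo left array 1 or 3, of the 6 h groups. Without TatNR2B9c left 6 h array 2, 4 members passed, with DNAJB1 and HSPD1 added. The share of all probes passing there is not given, so that count is not read as particular to the members. Fitted on those 2 groups alone, neither passed (adjusted p = 0.104 for BAG3 and 0.125 for HSPB1).

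At 1 h the member nearest to a treatment difference in the ratio was HSPA8 in right cortex. Probe A gave 1.09, 0.49 and 1.097 in TatNR2B9c right cortex, against 0.25, −0.09 and −0.01 in placebo right cortex, without overlap (26.4% of all probes). The difference was 0.84 (SE 0.35, adjusted p = 0.273), and that of probe B 1.18 (SE 0.47, adjusted p = 0.252). In the Cy5 signal alone the difference was 0.75 for probe A (SE 0.23, adjusted p = 0.0305) but −0.12 for probe B (SE 0.28, adjusted p = 0.843). That signal also gave 1.71 for HSPB1 in right (SE 0.48, adjusted p = 0.0197) and 1.99 in left cortex at 1 h (SE 0.48, adjusted p = 0.00621). The ratio gave 0.0037 and 0.37 for these. HSPH1 in left cortex at 1 h gave −1.10 in Cy5 alone (SE 0.36, adjusted p = 0.0322), against 0.69 in the ratio (SE 0.49, adjusted p = 0.778). HSPA1A differed between treatments by 0.27 in right and −0.01 in left cortex at 1 h, and by −0.16 in right and 0.39 in left cortex at 6 h (SE 0.74 each, adjusted p of 0.738 or more). The interval in left cortex at 6 h, from the spread over all 8 groups, ran from −1.16 to 1.94. Differences of that size were thus not detectable with 3 animals a group.

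**Figure D4:**
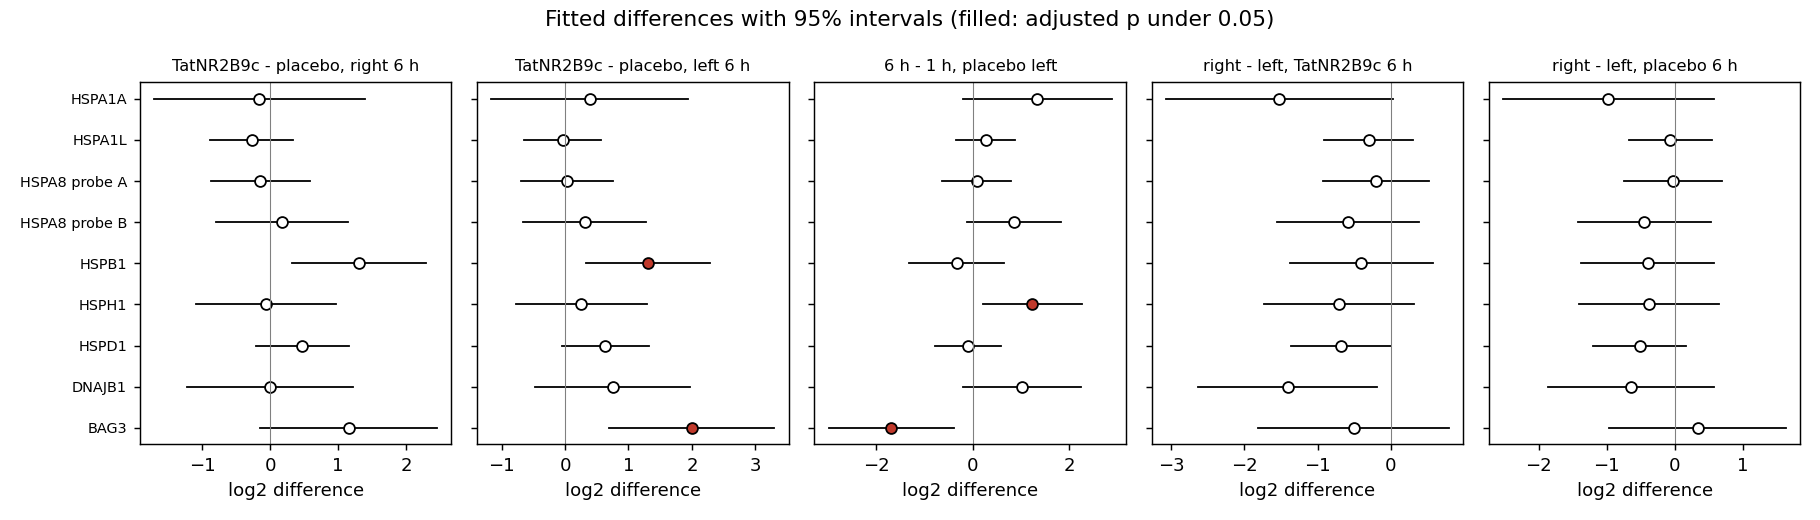
Fitted log2 differences (x axis) of the 9 member probes (rows) with 95% intervals in 5 comparisons, filled where limma's adjusted p was under 0.05. BAG3 and HSPB1 are filled for TatNR2B9c minus placebo in left cortex at 6 h, HSPH1 and BAG3 for 6 h minus 1 h in placebo left cortex, and no probe is filled for right minus left.

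The comparison of 6 h with 1 h asks how the chaperones changed with time since occlusion. In TatNR2B9c animals 0 of 9 members passed in right and 0 of 9 in left cortex, as did 0% of all probes in both. HSPA1A in TatNR2B9c left cortex differed by 1.73 between 6 h and 1 h (SE 0.74, 95% interval 0.18 to 3.28, unadjusted p = 0.0304, adjusted p = 0.267). The arrays of TatNR2B9c animals 1 and 2 at 6 h were on another slide and scan day than all TatNR2B9c arrays at 1 h. For those animals time cannot be told apart from slide and scan day. The animals that share a slide, TatNR2B9c animal 3 of each time, gave 1.56 at 6 h and −0.40 at 1 h in left cortex.

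In placebo animals the campaign differed between the times. In left cortex 2 of 9 members passed, 1 higher and 1 lower at 6 h, against 54.2% of all probes (31.0% higher and 23.2% lower). In right cortex 0 of 9 passed, against 40.9% of all probes. Both shares of members lay below those of all probes. HSPH1, an HSP110 exchange factor, gave 2.45, 2.64 and 1.57 in placebo left cortex at 6 h, against 0.06, 1.36 and 1.53 at 1 h. It was higher at 6 h by 1.24 (SE 0.49, adjusted p = 0.0406), but the difference was −2.83 with median centring (adjusted p = 0.000453), −0.32 with arrays scaled to equal spread and −0.51 in the Cy5 signal alone. BAG3 gave −3.005, −2.30 and −2.29 at 6 h, against −0.09, −1.56 and −0.88 at 1 h, and fell by 1.69 (SE 0.62, adjusted p = 0.0287). With arrays scaled to equal spread the BAG3 difference was 0.033. Neither passed without placebo left 6 h array 1, without placebo left 1 h array 1 or without the 3 arrays whose reference was well above background for under 25% of probes. BAG3 alone passed without placebo left 6 h array 2, HSPH1 and HSPA8 probe B passed without placebo left 1 h array 3, and HSPA1A was added without placebo left 6 h array 3. In right cortex BAG3 differed by −1.37 (SE 0.62, adjusted p = 0.0866), and passed without placebo right 1 h array 2 or TatNR2B9c left 6 h array 2.

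The order of the 8 group means shows how wide these spreads were. For HSPA1A it ran from TatNR2B9c left 6 h, at 1.48 ± 1.88, and placebo left 6 h, at 1.09 ± 1.78, through placebo right 6 h (0.11 ± 0.48), TatNR2B9c right 6 h (−0.05 ± 0.15), TatNR2B9c right 1 h (−0.07 ± 0.56), placebo left 1 h (−0.25 ± 0.36) and TatNR2B9c left 1 h (−0.26 ± 0.17) to placebo right 1 h (−0.34 ± 0.22; SD, n = 3 each). Each pair of neighbours differed by less than the larger of their SDs. TatNR2B9c left 6 h was the highest group for HSPA1A, HSPA8 probe B, HSPB1, HSPH1, HSPD1, DNAJB1 and BAG3. Placebo left 6 h was highest for HSPA1L and TatNR2B9c right 1 h for HSPA8 probe A.

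Of 71 further genes of the chaperone network (other HSP70, J-domain, small heat shock and HSP90 proteins, exchange factors, chaperonin subunits and heat shock factors), 59 were matched and 54 had a kept probe (57 probes). None passed in a right-left comparison, and over the 12 animals the median difference was −0.02, against 0.00 over all probes. The farthest from 0 there were HSPB7, a small heat shock protein of muscle, at −0.45 (SE 0.17), SUGT1, an HSP90 co-chaperone, at 0.34, and DNAJC6, which uncoats clathrin vesicles with HSPA8, at 0.33 (adjusted p = 0.884 each). At 6 h the network's median was 0.02 in TatNR2B9c animals and −0.11 in placebo animals, while the members' medians were −0.58 and −0.40, or −0.36 and 0.0061 without the single left array named above for each.

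Between treatments, at 6 h, 5 network probes were higher and 3 lower in TatNR2B9c left cortex than in placebo left cortex (10.8% and 13.8% of all probes), and 3 higher and 1 lower in right cortex (2.65% and 1.65%). HSF4, a heat shock factor best known from the lens, fell by 1.49 in left cortex (adjusted p = 0.000306) and fell by 0.76 in right (adjusted p = 0.0494). SERPINH1, the collagen chaperone HSP47, was higher in left by 1.25 (adjusted p = 0.00147) and in right by 0.99 (adjusted p = 0.0214), and HSPB7 in left by 1.17 (adjusted p = 0.019). HSPA4L, an HSP110 protein, was higher in left by 0.63 (adjusted p = 0.0394). HSPA5, the HSP70 of the endoplasmic reticulum, fell by 0.74 there (adjusted p = 0.00805) and FKBP4, an HSP90 co-chaperone, fell by 0.58 (adjusted p = 0.0232). HSPB2, a small chaperone of muscle, was higher in right by 1.29 (adjusted p = 0.018) and in left by 1.14 (adjusted p = 0.00988). ST13, which binds HSP70, was higher with one probe, in right by 0.90 (adjusted p = 0.0196) and in left by 1.11 (adjusted p = 0.00161). Its other probe did not pass, at 0.12 in right and 0.20 in left. At 1 h, 2 network probes were lower in right cortex (1.21% of all probes) and 1 was higher in left (0.824%). HSPB8, the partner of BAG3, fell by 1.41 in right (adjusted p = 0.0324) and one probe of ST13 fell by 1.08 (adjusted p = 0.0156). DNAJB2, a J-domain protein of neurons, was higher in left by 0.83 (adjusted p = 0.0466). In placebo animals, 12 network probes were higher and 11 lower at 6 h than at 1 h in right cortex (21.6% and 19.3% of all probes), and 19 higher and 11 lower in left (31.0% and 23.2%). HSPB2 fell by 2.90 in right and by 2.60 in left and HSPB7 fell by 2.36 in right and by 1.84 in left, the groups at 6 h being from another campaign. In TatNR2B9c animals none passed in either hemisphere.

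The genes whose right-minus-left pattern was most like that of HSPA1A over the 12 animals, members aside, were CD86, a costimulatory protein of antigen-presenting cells, NIN, a centrosome protein, and USP2, a deubiquitinase. Pearson's r was 0.92 for CD86, 0.91 for NIN and 0.91 for USP2, as a description over 12 animals. Without TatNR2B9c animal 1 and placebo animal 2 at 6 h it was 0.92, 0.76 and 0.79 for CD86, NIN and USP2 in that order. Their differences were smaller than those of HSPA1A, from −0.90 to 0.25 for CD86, −0.58 to 0.35 for NIN and −1.51 to 0.58 for USP2.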

How the data were processed

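The 24 cortical RNAs were hybridised to 2-colour Agilent arrays with no dye swap, sample in Cy5 and reference in Cy3 per the labels, so dye bias was not tested. The deposited intensities are mean spot signals and median local backgrounds on a linear scale, not normalised, per the file headers. The deposited log10 ratios (processed Cy5 over processed Cy3) and the 0 or 1 flags came from Feature Extraction, per the file headers. Its version was 10.7.3.1 for TatNR2B9c arrays, 10.5.1.1 at 6 h and 9.5.3.1 at 1 h for placebo arrays. The submitters' processing notes name only 10.7.3.1. The series matrix of the authors gives these log10 ratios within 0.005, with column medians from 0 to 0.162, which settles its direction and scale.

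Of 41851 spots, 1417 were controls. Background was corrected with limma 3.58.1 in R 4.3.3 (normexp, offset 50), and log2 ratios were loess-normalised within arrays. Control and non-uniform spots were left out and the 2 spots of a probe averaged. A probe entered if its Cy5 signal was well above background on all arrays of some group. A limma model with 8 group means gave 16 two-sided comparisons, with Benjamini-Hochberg adjustment over all kept probes. Correlations used 100000 permutations, or exact ones for 6 animals. The fit was tested on simulated data with independent arrays and the same spread in every group. That simulation held no animal, slide or campaign effect, so it does not test the fit for these. The number of arrays limits the precision.

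Right and left arrays of one number come from 1 animal per the labels. The correlation of their deviations from the group means was above 0.1 in 6 of 12 pairs (median 0.08). The highest correlation between any 2 arrays was 0.98, and no pair was taken for copies. Alternatives covered background, normalisation, the authors' ratios, Cy5 alone, the filter, 1 probe per gene, the groups fitted, blocks for animal, slide and scan day, weak-reference arrays and each array left out.

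Members, network and marker lists were chosen with earlier results of these data known. Named genes are all members, network genes that pass in a comparison or are among the 3 farthest from 0 in the pooled right-left and treatment comparisons (examples are given where many pass), and the 3 named genes most correlated with HSPA1A.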

Additional observations from a re-analysis of the deposited data

How the results depend on the processing

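No member passed in any right-left comparison, in the differences of those between times or treatments, or between times in TatNR2B9c animals, under any of the 37 alternatives. Members passing for TatNR2B9c against placebo were 7 in right and 8 in left cortex at 1 h with median centring and 2 and 2 in Cy5 alone, where right cortex at 6 h had 1. In left cortex at 6 h the count, 2 in the main setting, was 1 with no background subtraction, Cy5 alone, no filter, or slide or scan day as a block, and 0 with median centring, equal spread, processed signals, the series matrix or only the compared groups. Left-out arrays gave 0 to 4. For 6 h against 1 h in placebo right cortex it was 7 with median centring, 2 in Cy5 alone and 2 with only the compared groups, and 0 to 1 with arrays left out. In placebo left cortex it was 7 with median centring, 1 with only the compared groups or scan day as a block, and 0 with equal spread, processed signals, the series matrix, Cy5 alone or without the weak-reference arrays. Left-out arrays gave 0 to 3. Among the 4 calls of the main setting, directions turned for HSPB1 (TatNR2B9c against placebo, left 6 h) at −0.26 with median centring, for HSPH1 (6 h against 1 h, placebo left) at −2.83 with median centring, −0.32 with equal spread and −0.51 in Cy5 alone, and for BAG3 there at 0.033 with equal spread. Median centring put the median of all probes at −0.71 and −0.88 for treatment in right and left cortex at 1 h, and −0.71 and −0.80 for time in placebo right and left cortex. Over all 144 member values the sign was kept in 84 with median centring, 108 with equal spread, 110 in Cy5 alone and 120 with processed signals; of those turned, 21, 2, 3 and 0 passed in either setting. The causes were not tested. Animal as a replicate block (consensus correlation 0.048) changed no call, with 2 members passing for treatment in left cortex at 6 h. BAG3 in that comparison kept its sign in 37 of 37 alternatives and passed in 27. HSPA1L and the weak-reference arrays had least signal over background.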

Other observations

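A probe described as similar to the mitochondrial HSP10, the lid of the HSPD1 chaperonin, carries no member symbol and is named here after its values were seen. It lies on rheMac2 chromosome 7, 70350812 to 70350871, plus strand. In placebo right cortex it gave −2.95, −2.30 and −0.98 at 6 h, against 0.03, 0.14 and −0.01 at 1 h, and in placebo left cortex −2.37, −2.62 and −1.31 at 6 h, against 0.08, 0.09 and 0.06 at 1 h. The difference was −2.13 in right (SE 0.39, limma's adjusted p = 0.00036) and −2.18 in left cortex (SE 0.39, adjusted p = 0.000166), with time and campaign not separable. The Cy5 signal alone did not give this: there 6 h minus 1 h was 0.33 in right (SE 0.42, adjusted p = 0.626) and 0.70 in left cortex (SE 0.42, adjusted p = 0.29). The reference signal of this probe was 5.72 to 5.97 (log2) on the placebo 1 h arrays and 9.003 to 11.3 on the placebo 6 h arrays. The direction of the difference thus depends on whether the reference is used. In TatNR2B9c animals the difference of 6 h from 1 h was −0.67 in right and −0.77 in left cortex (adjusted p = 0.347 and 0.326), and right minus left over 12 animals was 0.01 (SE 0.19). HSPD1 itself differed by −0.54 in placebo right and −0.10 in placebo left cortex (adjusted p = 0.193 and 0.816).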
